A study of Homo sapiens with 6 samples.

Results

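The genes described here are 10 transcripts of negative feedback on, and output of, the ERK kinase pathway: DUSP1, DUSP4, DUSP5, DUSP6, DUSP7, SPRY2, SPRY4, SPRED1, SPRED2 and ETV5. They were chosen by name, with earlier results of these data known, and each was found once among the 61895 rows of the deposited table by its Ensembl gene ID. All 10 passed the filter on low values, a mean level of 1 TPM or more across the 6 libraries. The cells were PC3, a long-established line from a human prostate cancer that does not depend on androgen, kept in medium with serum. Of the 6 RNA-seq libraries, 3 came from cells that carried a lentiviral vector as control (shControl, genotype NC in the labels) and 3 from cells that carried short hairpin RNA against CTSZ, the gene of the lysosomal protease cathepsin Z (shCTSZ). Both were stable populations after selection with a drug. The labels do not say how many hairpins were used or whether libraries of a group were separate cultures, so p-values measure the spread between these libraries, which may be technical. The design asks how CTSZ acts on cytokine secretion. ERK activity itself was not measured.

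ERK is the last kinase of a relay that runs from growth factor receptors through RAS, RAF and MEK. Active ERK induces its own brakes. DUSP genes encode phosphatases that remove the activating phosphates from MAP kinases. Sprouty proteins (SPRY) and Spred proteins (SPRED) act further up, between receptor and RAF, and Spred proteins bring the RAS inhibitor neurofibromin to the membrane. ETV5 belongs to the PEA3 group of ETS transcription factors, whose transcripts follow ERK activity in many cell types. Levels of DUSP6, SPRY4 and ETV5 messenger RNA are therefore often read as a record of ERK signalling in tumour cells.

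Values are TPM, a share of each library per unit of transcript length. TPM hold no information on read totals, so sequencing depth is unknown and counting intervals cannot be given. Fold changes are differences of log2(TPM + 1), shCTSZ minus shControl, from a limma fit over 14874 genes, and understate the change of low genes. A gene is said to have risen or fallen where its Benjamini-Hochberg adjusted p in that fit was under 0.05. In RNA from a whole culture, fewer cells that express a gene and less RNA per cell cannot be told apart. CTSZ, the target of the hairpin, stood at 90.6, 94.7 and 93.2 TPM in the control libraries and at 21.7, 18.3 and 19.7 TPM in the knockdown libraries. The keratin genes KRT8 and KRT18 marked the cells as epithelial in all libraries, while the epithelial markers EPCAM and, outside 1 control library, CDH1 stayed under 1 TPM. The luminal markers KLK2, KLK3 and TMPRSS2 stayed under 1 TPM too, with KLK3 at 0 throughout, and so did all 5 leukocyte markers. The 5 epithelial markers summed to between 4350 and 4470 TPM in shControl and between 6039 and 6230 TPM in shCTSZ, nearly all of it KRT8 and KRT18. KRT8 rose from a mean of 1256 to 2304 TPM and KRT18 from 3149 to 3859 TPM (limma adjusted p = 2.70e-05 and 2.29e-04). KRT19 did not pass the test, with means of 1.58 TPM in shControl and 0.763 TPM in shCTSZ. The leukocyte markers summed to at most 0.79 TPM in any library, and the 5 fibroblast and endothelial markers to between 2.08 and 2.7 TPM in shControl and between 0.79 and 1.93 TPM in shCTSZ. The part of these marker levels in the results below was not tested.

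The feedback genes did not move as a block. SPRED1, SPRED2 and DUSP6 rose, DUSP5 and DUSP7 fell, and DUSP1, DUSP4, SPRY2, SPRY4 and ETV5 did not pass the test. In all, 5 of 10 members were called, where 34.5% of all tested genes were. The 3 rises stand beside a background of 19.8% of genes higher, and the 2 falls beside 14.7% lower. Groups did not overlap for 6 of the 10, the 5 called genes and DUSP4, against 50.3% of all tested genes. The median log2 fold change was 0.07 over the members and 0.04 over all tested genes. With so many genes called in these libraries, the number of members called is not read as a property of the set.

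**Figure D1:**
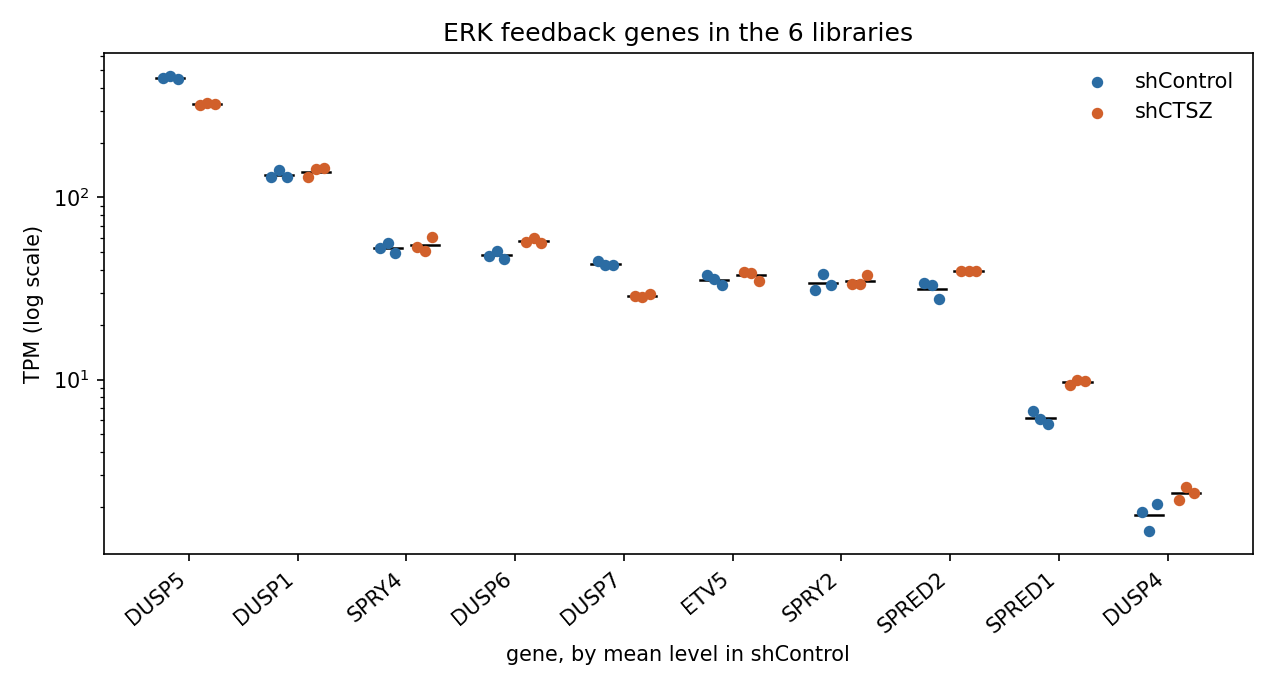
TPM of the 10 ERK feedback genes on a log axis, ordered by mean level in shControl; points are libraries (3 shControl, 3 shCTSZ) and bars are group means. DUSP5 and DUSP7 sit lower in all 3 shCTSZ libraries, DUSP6, SPRED1 and SPRED2 sit higher, and the groups of DUSP1, SPRY2, SPRY4 and ETV5 overlap.

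DUSP5, a nuclear phosphatase that acts on ERK and is induced by it, was by far the most abundant member. Its level was 450.3, 465 and 446 TPM in the shControl libraries and 323, 328 and 325 TPM in the shCTSZ libraries. Every knockdown library was below every control library, with a gap far wider than the spread inside either group. The mean fell from 454 ± 10.4 to 326 ± 2.36 TPM (SD, n = 3 per group), to 71.7% of control, a log2 fold change of -0.48 (SE 0.028, 95% interval -0.55 to -0.41, limma adjusted p = 1.46e-04). DUSP5 (ENSG00000138166) lies on GRCh38 chromosome 10, 110497838 to 110511544, plus strand, with no other gene of the table overlapping it.

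DUSP7, a cytoplasmic phosphatase that acts on ERK and is closely related to DUSP6, held 44.6, 42.3 and 42.4 TPM in shControl and 28.6, 28.4 and 29.4 TPM in shCTSZ. The groups were again well apart. The mean fell from 43.1 ± 1.28 to 28.8 ± 0.53 TPM, to 66.8% of control (log2 fold change -0.57, SE 0.047, 95% interval -0.68 to -0.46, limma adjusted p = 4.08e-04). DUSP7 (ENSG00000164086, chromosome 3, 52048919 to 52056550, minus strand) also overlaps no other gene of the table.

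DUSP6, the relative of DUSP7 that is most often used as a readout of ERK, went the other way. It held 47.9, 51.1 and 45.7 TPM in shControl and 56.8, 60.2 and 56.4 TPM in shCTSZ, so that the lowest knockdown library lay above the highest control. The mean rose from 48.2 ± 2.71 to 57.8 ± 2.09 TPM, 119.9% of control (log2 fold change 0.26, SE 0.055, 95% interval 0.13 to 0.39, limma adjusted p = 0.0119). The 95% intervals of DUSP6 and DUSP7, which both encode cytoplasmic phosphatases of ERK, lay on opposite sides of 0; the difference between the genes was not tested. DUSP6 (ENSG00000139318, chromosome 12, 89347232 to 89353271, minus strand) overlaps an antisense gene that was under 1 TPM on average.

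DUSP1 is an immediate early gene of growth factors and stress whose nuclear product acts on JNK and p38 as well as ERK. Its levels were 129, 141 and 129 TPM in shControl and 129, 143 and 144 TPM in shCTSZ, with overlap between the groups. Its log2 fold change of 0.06 had a 95% interval from -0.08 to 0.20 (limma adjusted p = 0.458). DUSP1 overlaps an antisense gene that was under 1 TPM on average. DUSP4, another nuclear phosphatase, was close to the filter, at 1.88, 1.47 and 2.08 TPM in shControl and 2.19, 2.58 and 2.38 TPM in shCTSZ. All 3 knockdown values of DUSP4 were above all 3 control values, but the interval of its log2 fold change of 0.27 ran from -0.08 to 0.63 and the gene did not pass the test (limma adjusted p = 0.204). The interval of DUSP4 was the widest of the 10.

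Since DUSP5 made up 66.8% of the summed TPM of the 5 phosphatase genes in shControl, the sum followed it. The sum was 674, 701 and 665 TPM in shControl and 539.6, 562 and 558 TPM in shCTSZ, and the share of DUSP5 in it was 58.9% in shCTSZ. Within libraries, the log2 ratio of DUSP5 to DUSP1 was 1.77 ± 0.041 in shControl and 1.23 ± 0.082 in shCTSZ (ratio of TPM + 1, SD, n = 3). The log2 ratio of DUSP4 to DUSP6 was -4.13 ± 0.24 and -4.12 ± 0.051.

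SPRED1 had the largest rise of the members on the log2 scale. SPRED1 is a membrane adaptor that recruits neurofibromin against RAS and is lost in Legius syndrome. It held 6.71, 6.10 and 5.68 TPM in shControl and 9.30, 9.99 and 9.89 TPM in shCTSZ. The groups did not overlap, and the mean rose from 6.16 ± 0.52 to 9.73 ± 0.37 TPM, 157.8% of control (log2 fold change 0.58, SE 0.085, 95% interval 0.38 to 0.78, limma adjusted p = 0.00283). SPRED1 (ENSG00000166068) lies on chromosome 15, 38252326 to 38357249, plus strand.

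SPRED2, which acts in the same manner, held 33.8, 32.9 and 27.9 TPM in shControl and 39.5, 39.4 and 39.6 TPM in shCTSZ. The knockdown libraries were nearly identical, and control replicate 3 was the lowest of all. The mean rose from 31.5 ± 3.19 to 39.5 ± 0.12 TPM, 125.2% of control (log2 fold change 0.32, SE 0.076, 95% interval 0.14 to 0.50, limma adjusted p = 0.0173). SPRED2 lost its call without shCTSZ replicate 3, where its adjusted p was 0.0516 at a log2 fold change of 0.32; over all 16 alternatives its adjusted p ran from 0.00943 to 0.0516. The log2 ratio of SPRED1 to SPRED2 was -2.18 ± 0.072 in shControl and -1.92 ± 0.051 in shCTSZ, so SPRED1 moved closer to its more abundant relative. SPRED2 (ENSG00000198369) lies on chromosome 2, 65310851 to 65432637, minus strand. A gene inside an intron of SPRED2, on the same strand, was under 1 TPM on average.

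The Sprouty genes did not pass the test. SPRY2, a brake on growth factor receptor signalling, held 31.2, 37.9 and 33.2 TPM in shControl and 33.7, 33.4 and 37.5 TPM in shCTSZ. SPRY4 held 52.8, 55.9 and 49.3 TPM in shControl and 53.2, 51.1 and 60.8 TPM in shCTSZ. For both genes the groups overlapped. The 95% interval of the log2 fold change ran from -0.16 to 0.23 for SPRY2 (limma adjusted p = 0.786) and from -0.12 to 0.24 for SPRY4 (0.587). The direction of SPRY2 depended on scaling, at 0.03 as deposited and -0.02 under median-of-ratios scaling. The log2 ratio of SPRY4 to SPRY2 was 0.62 ± 0.11 in shControl and 0.64 ± 0.042 in shCTSZ. SPRY4 overlaps the antisense gene SPRY4-AS1, whose mean was 7.69 TPM in the control and 7.99 TPM in the knockdown libraries. It also overlaps 2 small RNA genes on the other strand. ENSG00000277968 had a mean of 17.1 TPM in the control libraries and was listed at 0 in the knockdown libraries, and ENSG00000274721 was listed at 0 in the control and had a mean of 4.61 TPM in the knockdown libraries. Each was above 0 in a single library, replicate 3 of its group, and neither was called (limma adjusted p = 0.348 and 0.352). Reads of SPRY4 and of these genes cannot be told apart if strand was not used in counting.

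ETV5, the transcription factor of the set, held 37.3, 35.9 and 33.1 TPM in shControl and 38.8, 38.5 and 34.8 TPM in shCTSZ. Its groups overlapped, and its log2 fold change of 0.07 had a 95% interval from -0.09 to 0.23 (limma adjusted p = 0.429). An antisense gene, ETV5-AS1, overlaps ETV5, as do the protein-coding gene DGKG and a small RNA gene, both on the same strand. Each was under 1 TPM on average.

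In shControl the order of levels, which TPM allows since it is per transcript length, was DUSP5, DUSP1, SPRY4, DUSP6, DUSP7, ETV5, SPRY2, SPRED2, SPRED1 and DUSP4. Neighbours whose libraries overlapped in that order were SPRY4 with DUSP6, ETV5 with SPRY2, and SPRY2 with SPRED2. In shCTSZ, DUSP7 had moved from rank 5 to rank 8, below SPRY2, while SPRED2 had moved from rank 8 to rank 5. The libraries of DUSP6 and SPRY4 still overlapped, as did those of ETV5 and SPRY2.

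**Figure D2:**
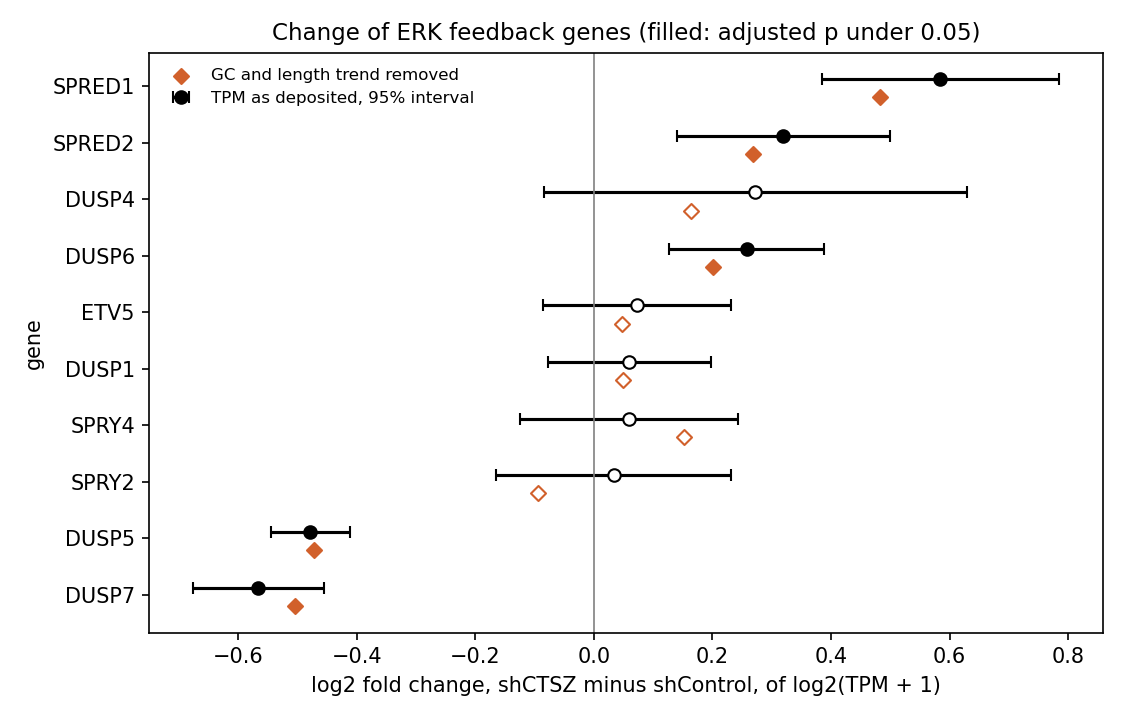
Log2 fold change of each ERK feedback gene, shCTSZ minus shControl, on the log2(TPM + 1) scale, with 95% limma intervals (circles), and the same after the dependence of each library on GC content and length had been taken out (diamonds); filled symbols have an adjusted p under 0.05. The same 5 genes are filled in both, DUSP5 and DUSP7 on the left and DUSP6, SPRED1 and SPRED2 on the right.

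Change in these libraries moved with the base composition of transcripts. The median log2 fold change was 0.13 in the 3581 tested genes lowest in GC content and -0.12 in the 3581 highest. SPRED1, the member that rose most, had the lowest GC content of the set (44.8%), and DUSP7, the member that fell most, the highest (59.6%). DUSP5, which fell, and DUSP1, which did not pass the test, both stood at 55.1%. How far GC content accounts for the changes of the members was not tested. With the dependence of each library on GC content and length taken out (the GC fit below), an alternative chosen after seeing the data in which 32% of 14324 genes were called, the same 5 members were called in the same directions. The log2 fold changes were then -0.47 for DUSP5, -0.50 for DUSP7, 0.20 for DUSP6, 0.48 for SPRED1 and 0.27 for SPRED2, with adjusted p from 1.44e-04 to 0.0269. SPRY2 stood at -0.09 and SPRY4 at 0.15 in that fit, neither called.

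**Figure D3:**
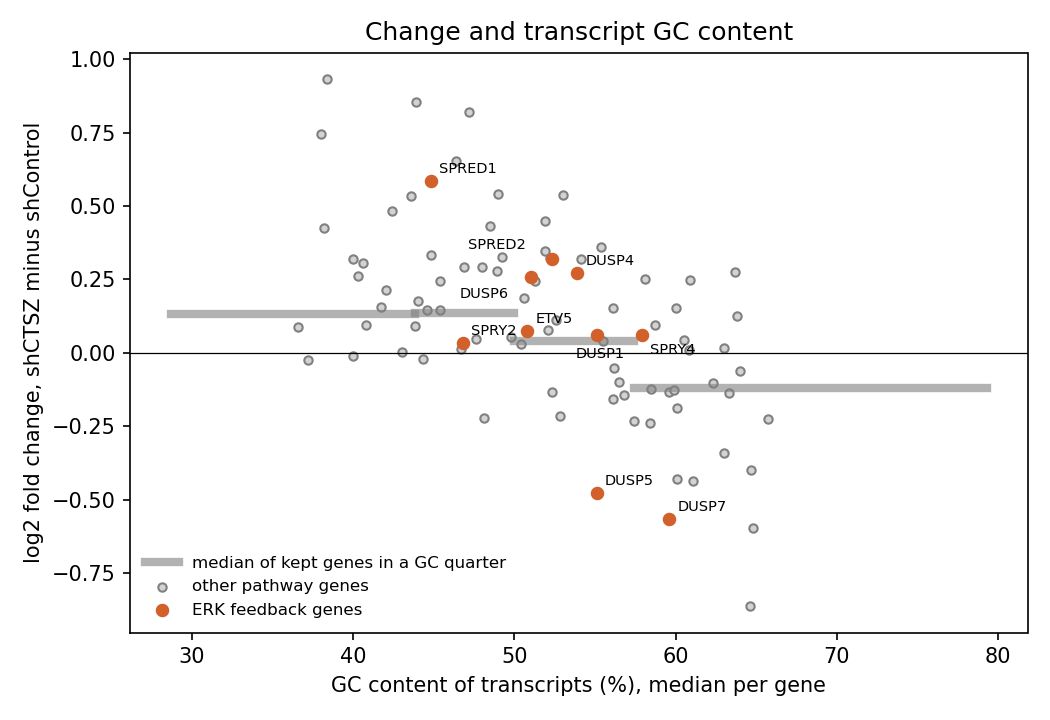
Log2 fold change, shCTSZ minus shControl, against the median GC content of a gene's transcripts in percent, for the 10 ERK feedback genes (named) and the 79 other tested genes of the pathway lists; grey bars are medians of all tested genes in 4 equal groups of GC content, from low to high. The bars stand at 0.13, 0.14, 0.04 and -0.12, and DUSP5 and DUSP7 lie well below them.

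Promoter sequence was examined for motifs of factors that carry ERK and cyclic AMP signals, in the 250 bases before each start in the RefSeq table (GRCh38.p14), which held 10 windows for 7 members. The search, on both strands, covered the cyclic AMP response element or CRE (TGACGTCA), the short core of it (TGACG), AP-1 (TGANTCA), ETS (CCGGAA), the E-box (CACGTG), the GC box (GGGCGG), the TATA box (TATAAA) and the CArG box of serum response factor. A full CRE also counts as 2 cores, 1 on each strand. The windows of DUSP1, which did not pass the test, DUSP7, which fell, and SPRED2, which rose, are shown 5′ to 3′ on the gene's minus strand, with every match in capitals, as 1 example of each outcome.
DUSP1, chr5:172771196-172771445: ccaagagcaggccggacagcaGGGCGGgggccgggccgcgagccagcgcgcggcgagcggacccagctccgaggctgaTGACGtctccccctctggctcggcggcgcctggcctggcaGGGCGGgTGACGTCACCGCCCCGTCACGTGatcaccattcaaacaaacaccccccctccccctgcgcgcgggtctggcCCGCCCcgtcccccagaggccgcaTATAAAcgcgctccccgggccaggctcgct
DUSP7, chr3:52056572-52056821: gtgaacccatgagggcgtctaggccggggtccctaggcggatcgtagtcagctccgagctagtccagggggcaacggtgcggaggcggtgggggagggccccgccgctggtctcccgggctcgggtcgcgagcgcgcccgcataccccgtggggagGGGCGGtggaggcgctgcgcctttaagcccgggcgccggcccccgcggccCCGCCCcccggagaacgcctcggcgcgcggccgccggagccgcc
SPRED2, chr2:65432600-65432849: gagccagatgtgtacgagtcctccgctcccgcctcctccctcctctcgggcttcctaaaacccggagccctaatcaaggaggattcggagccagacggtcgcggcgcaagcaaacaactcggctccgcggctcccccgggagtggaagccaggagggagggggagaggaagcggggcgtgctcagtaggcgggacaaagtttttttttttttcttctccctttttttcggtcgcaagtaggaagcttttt
DUSP1 held 1 CRE, which 1.6% of all 35116 windows hold, with 4 cores, 4 GC boxes, 1 E-box and 1 TATA box. DUSP7 held 2 GC boxes, a motif found in 42.6% of windows, and none of the others. The SPRED2 window shown held no match, and its other window 1 TATA box (10.7% of windows). Of the remaining members, SPRY2 held 1 ETS match (14.5% of windows), 1 core and 2 GC boxes in its first window, SPRY4 1 core (21.2%) and 1 GC box, SPRED1 1 GC box, and DUSP6 none. No member window held an AP-1 (6.6%) or CArG match (1.2%). A match is a run of letters and not evidence of binding.

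Transcripts of feedback genes are often short-lived, and AU-rich elements in the 3′ untranslated region are a known cause of rapid decay. The pentamer ATTTA and the stronger nonamer TTATTTATT were counted in the longest annotated 3′ untranslated region of each gene (GENCODE 29). The nonamer, found in 9.5% of 11707 tested genes, was present in 2 members, DUSP1 with 2 copies and DUSP4 with 1. The first site of DUSP1, from the transcript of chromosome 5, is shown as an example, with the nonamer in capitals. The site of DUSP4 holds the same nonamer and is not shown.
DUSP1 site: gggctggtccTTATTTATTtaacttcacc
SPRED1 held 24 pentamers in 5585 bases, more than 98.1% of tested genes, and SPRY4 8 in 3782 bases. DUSP4 held 6, SPRED2 5, DUSP1 and ETV5 4 each, DUSP7 and SPRY2 2 each, DUSP6 1 and DUSP5 none, beside a median of 2 over tested genes. Per kilobase the order differed, with DUSP1 at 5.95, SPRED1 at 4.30, SPRY2 at 2.56, SPRY4 at 2.12, SPRED2 at 1.89 and ETV5 at 1.72. The others were below the median of 1.64, with DUSP4 at 1.51, DUSP7 at 0.90, DUSP6 at 0.49 and DUSP5 at 0. DUSP5, which fell, and DUSP6, which rose, were at the low end of both measures. The part of these elements in the changes was not tested.

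The other typical MAP kinase phosphatases, Sprouty, Spred and PEA3 genes numbered 10, of which 7 were tested. The counts of this and the following lists stand beside 34.5% of all tested genes called, 19.8% higher and 14.7% lower, and 32% called in the GC fit. Of these 7, 1 rose and 2 fell. ETV1, a PEA3 factor like ETV5, measured 12.97, 10.1 and 8.73 TPM in the control libraries and 20.5, 21.3 and 17.6 TPM in the knockdown libraries, and rose by 0.86 on the log2 scale (limma adjusted p = 0.00445). DUSP8, a phosphatase of JNK and p38, fell by 0.86 on the log2 scale (means 24.9 ± 5.43 and 13.03 ± 0.95 TPM, adjusted p = 0.00636), with control replicate 3 at 18.7 TPM below the other controls at 28.6 and 27.4 TPM. Both calls held under all 16 alternatives. ETV4, the third PEA3 factor, fell by 0.13 on the log2 scale from 71.9 ± 0.81 to 65.5 ± 2.31 TPM (adjusted p = 0.0467). The call of ETV4 was lost under 11 of 16 alternatives, including the removal of any single library (adjusted p 0.0766 to 0.126) and in the GC fit (log2 fold change -0.01, adjusted p = 0.915). The 3 PEA3 genes ETV1, ETV4 and ETV5 therefore had different values, 0.86, -0.13 and 0.07. SPRY1, DUSP10, DUSP16 and SPRED3 did not pass the test, at 11.1, 3.86, 6.11 and 2.95 TPM in shControl and 12.4, 3.86, 5.997 and 1.90 TPM in shCTSZ. DUSP2, DUSP9 and SPRY3 were under the filter. SPRED3, whose groups did not overlap, was called in 1 of its 15 alternatives (protein-coding genes only, adjusted p = 0.0415).

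Other transcripts known to be induced by ERK went both ways. Of 9 tested, 2 rose, 3 fell and 4 did not pass, with a median log2 fold change of -0.10. CCND1, the cyclin that ERK drives in G1, rose by 0.28 on the log2 scale, from 206 ± 6.15 to 249.8 ± 11.9 TPM (limma adjusted p = 0.00397) and kept its call under all 16 alternatives, with a larger log2 fold change of 0.49 in the GC fit. EGR1, an immediate early zinc finger factor, held 187, 195 and 179 TPM in shControl and 209, 239.9 and 277 TPM in shCTSZ and rose (log2 fold change 0.36, adjusted p = 0.0251). The call of EGR1 was lost when control replicate 1, control replicate 3 or knockdown replicate 2 was left out (0.0626 to 0.0793) and under 2 other alternatives. The AP-1 genes FOSL1 (197 ± 3.80 to 172.5 ± 4.42 TPM, adjusted p = 0.00644) and FOS (22.4 ± 1.47 to 16.5 ± 2.56 TPM, adjusted p = 0.0222) fell, as did IER3 (509 ± 8.93 to 431 ± 26 TPM, adjusted p = 0.00812). None of these 3 falls was called in the GC fit (adjusted p = 0.389 for FOSL1, 0.0735 for FOS and 0.0731 for IER3), and FOS also lost its call when any of 4 libraries was left out, replicates 1 and 2 of each group (0.0650 to 0.0694). EPHA2 (390.5 and 364 TPM), PHLDA1 (227 and 228 TPM), MYC (243 and 259.8 TPM) and EPHA4 (2.21 and 1.76 TPM) did not pass. In the GC fit PHLDA1 fell by 0.23 and MYC rose by 0.21 on the log2 scale (adjusted p = 0.00508 and 0.00996). EPHA2 was called lower in 1 of 16 alternatives, median-of-ratios scaling (log2 fold change -0.15, limma adjusted p = 0.0117).

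Of 13 tested receptors and adaptors, 5 rose and 1 fell, with a median log2 fold change of 0.18. PTPN11, the phosphatase SHP2 that relays receptor signals to RAS, rose from 35.1 ± 3.68 to 51.3 ± 1.62 TPM (limma adjusted p = 0.00298), and SOS1, an exchange factor that loads RAS, from 7.75 ± 0.78 to 10.7 ± 0.21 TPM (0.00948). EGFR rose from 118 ± 12.6 to 147 ± 9.95 TPM (0.0275), but lost that call under 7 of 16 alternatives, among them the removal of any 1 of 4 libraries, replicates 2 and 3 of each group (0.0507 to 0.0836). FRS2, the docking protein of fibroblast growth factor receptors, rose from 2.43 ± 0.61 to 4.42 ± 1.22 TPM (0.0463), a call lost on leaving out any library (0.0580 to 0.124). Of 17 genes of the RAS-RAF-MEK-ERK relay, 3 rose and 4 fell (median 0.03). NRAS rose from 20.7 ± 1.14 to 40.3 ± 0.27 TPM and BRAF from 11.5 ± 0.71 to 16.5 ± 0.87 TPM, while HRAS fell from 220.5 ± 6.40 to 167 ± 7.97 TPM and the RAS relative RRAS from 123 ± 2.80 to 80.8 ± 3.49 TPM (adjusted p from 1.46e-04 to 0.00317). In the GC fit these genes stayed called, with BRAF at 0.32 in place of 0.48 and HRAS at -0.23 in place of -0.40 on the log2 scale. MAPK3, which encodes an ERK kinase, did not pass (group means 80.2 and 82.7 TPM, adjusted p = 0.413); in the GC fit it rose by 0.18 on the log2 scale (0.00732).

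Of 9 other tested brakes of the pathway, 4 rose and none fell, beside 19.8% of all tested genes higher, and the median log2 fold change was 0.31. In the GC fit 3 rose and the median was 0.16. The genes that rose included PEBP1, the RAF kinase inhibitor protein, from 78.4 ± 4.47 to 114 ± 6.19 TPM (limma adjusted p = 0.00107), ERRFI1, a feedback inhibitor of EGFR, from 763 ± 68.5 to 967 ± 25.9 TPM (0.00631), and CBL, which tags receptors for degradation, from 16.6 ± 2.22 to 22.7 ± 0.79 TPM (0.0142). Those 3 calls held under all 16 alternatives, with CBL at 0.28 in the GC fit in place of 0.43 on the log2 scale. RASA1, a GTPase activator of RAS, rose from 10.5 ± 0.77 to 13.3 ± 0.84 TPM (adjusted p = 0.0217), but not when replicate 2 or 3 of either group was left out (0.0613 to 0.0718) or in the GC fit (0.115). Of 10 transcription factors and repressors that ERK regulates, 5 rose and 1 fell (median 0.25). ELK3 rose from 44.1 ± 4.21 to 78.6 ± 3.82 TPM and ETS1 from between 89.5 and 113 to between 139 and 157 TPM (adjusted p = 6.1e-04 and 0.00559). SRF rose from 35.7 ± 1.38 to 42.7 ± 2.43 TPM (0.0165; 0.0543 without shCTSZ replicate 3), and its partner ELK1, a direct ERK substrate, from 41.3 ± 3.61 to 49.3 ± 3.05 TPM (0.0411), a call lost on leaving out any library but shControl replicate 1 (0.0604 to 0.120). CIC, a repressor of PEA3 genes that ERK inactivates, held 45.2, 38.7 and 37.8 TPM in shControl and 34.2, 34.9 and 34.3 TPM in shCTSZ (adjusted p = 0.0493, and 0.601 in the GC fit). Control replicate 1 was well above the other controls. CIC was named after its values were seen, and besides the GC fit no alternative was read for it.

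Over the 8 lists, 24 of 79 tested genes rose and 12 fell, beside 19.8% higher and 14.7% lower over all tested genes. The median GC content was 48.7% for those that rose and 60.1% for those that fell, and in the GC fit 23 rose and 5 fell, where 32% of all genes were called. How far base composition accounts for the changes of these genes was not tested.

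**Figure D4:**
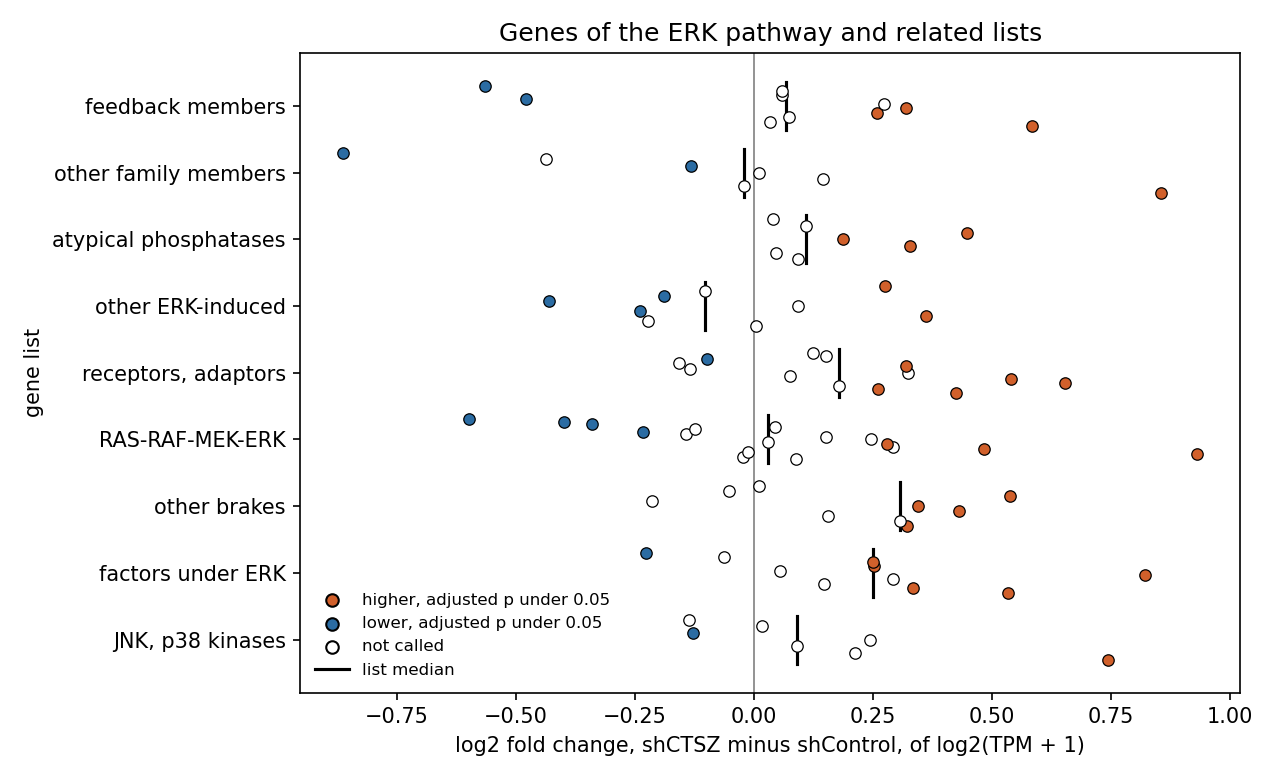
Log2 fold change, shCTSZ minus shControl, of each tested gene of the ERK feedback set and 8 related lists; orange circles rose and blue circles fell at an adjusted p under 0.05, open circles were not called, and black bars are list medians. The feedback members spread from -0.57 to 0.58 around a median of 0.07.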

How the data were processed

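Total RNA was taken with TRIzol and went into a SMARTer-type mRNA library kit, per the labels' protocols. The submitters' processing notes name fastp, RSEM and the build GRCh38.p13; tool versions, the aligner, the annotation and whether strand was used were not found in these sources. The values are TPM as the authors deposited them, in 1 table with 6 columns. Columns were matched to samples by name. Names came from an ID table that covered 61369 of 61541 Ensembl IDs; 354 other rows carry no gene ID and hold 0.328% of TPM. GC content, length and positions came from GENCODE 29.

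The 14874 genes whose mean reached 1 TPM were put on the log2(TPM + 1) scale and compared between the groups by limma (3.58.1, R 4.3.3), with trended moderation of the variance, no covariate and Benjamini-Hochberg adjustment. The fit was also run on simulated data in which 200 genes, picked without regard to GC content, were changed. That setting differs from these libraries, where 34.5% of genes were called, so no conclusion on the calls here is drawn from it. Single genes were not tested by permutation, since the smallest two-sided exact p for groups of 3 is 0.1. The 10 genes, the other lists and the naming rule were chosen with earlier results of these data known. That rule names every member, tested genes of the family and ERK-induced lists, and, of each other list, up to 4 called genes with the smallest adjusted p, and the 5 profiles most like DUSP6; MAPK3 and CIC were named outside it after their values were seen. Alternatives were other pseudocounts (0.1 and 5), filters (none, and 5 TPM) and scalings (median-of-ratios, quantile), no trend, a replicate block and leaving out each library. A further 2, chosen after seeing the data, were removal of the GC and length trend (splines, 5 degrees of freedom each) and protein-coding genes only.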

Additional observations from a re-analysis of the deposited data

How the results depend on the processing

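Of the 10 feedback genes, the same 5 were called in the same directions under 15 of 16 alternatives, and 4 of them without shCTSZ replicate 3, where SPRED2 missed the threshold. The number of genes called over the whole table was 5135, 3911 with no filter on low values, 4582 with the GC and length trend removed, and 3869 to 4416 on leaving out a library. Median-of-ratios scaling gave 2463 higher and 2661 lower genes in place of 2950 and 2185. The replicate numbers showed no visible pairing of the libraries, as deviations from the group means correlated at -0.09, -0.02 and -0.04 for equal numbers. With groups this small, these values cannot settle whether libraries were prepared in pairs, which the labels do not say. With a replicate block 4026 genes were called, all 5 members kept their calls, and 23 genes of the pathway lists were called in place of 36. On leaving out a library that count was 22 to 28, lowest without shCTSZ replicate 2. Among the named genes followed through the alternatives, those that lost their call under the block were ETV4, FOS, DUSP3, EGFR, FRS2, RASA1, SRF, ELK1 and MAP2K3 (adjusted p 0.0549 to 0.105). CIC was not among the genes followed, so whether it kept its call under the block is not known. The block leaves fewer degrees of freedom, and leaving out a library leaves fewer libraries in the fit. Whether that or dependence on single libraries accounts for the lost calls was not tested.

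The following genes changed sign under an alternative (log2 fold changes). SPRY2 stood at -0.0151 (median-of-ratios), -0.0121 (quantile) and -0.0936 (GC and length trend removed), and between -0.0273 and 0.11 on leaving out a library. SPRY4 stood between -0.0131 and 0.11 on leaving out a library. DUSP10 stood at -0.0279 (median-of-ratios) and -0.0668 (GC and length), and between -0.0495 and 0.134 without a library, and DUSP16 between -0.0836 and 0.0422. PHLDA1 stood at -0.0453 (median-of-ratios), -0.0185 (quantile), -0.235 (GC and length, called at adjusted p = 0.00508) and -0.00062 (protein-coding genes), and between -0.0268 and 0.0461 without a library. EPHA2 stood at 0.0561 and MAP2K3 at 0.0346 with the GC and length trend removed. The cause was not tested. TPM keep no depth, so how far counting error limits DUSP4 is unknown.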

Other observations

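Of 7 tested atypical dual-specificity phosphatases, 3 rose and none fell, beside 34.5% of all tested genes called and 19.8% higher; with the GC and length trend removed 2 rose. DUSP14 rose from 73.4 ± 5.19 to 92.2 ± 1.94 TPM (limma adjusted p = 0.00571) and DUSP18 from 5.28 ± 0.14 to 7.60 ± 0.83 TPM (0.0128), both under all 16 alternatives; with a pseudocount of 5 the log2 fold change of DUSP18 was 0.29 in place of 0.45. DUSP3, which acts on ERK and JNK, rose from 53.7 ± 2.04 to 61.2 ± 1.65 TPM (0.0211), with adjusted p from 0.0171 to 0.0792 over the alternatives; the call was lost on leaving out any of 4 libraries, replicates 2 and 3 of each group, and once GC content and length were corrected for. Among 7 tested genes of the JNK and p38 branches, whose kinases are substrates of DUSP1 and DUSP8, MAPK8 (JNK1) rose from 44.5 ± 4.26 to 75.1 ± 3.25 TPM (adjusted p = 7.35e-04). MAP2K3 fell from 126 ± 3.05 to 115 ± 2.87 TPM (0.0370), a call lost on leaving out any library (0.0588 to 0.116).

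Over the 6 libraries, the profiles most like that of DUSP6 among 10675 genes whose mean reached 5 TPM were those of UTP15 (Pearson r = 0.998), PFKFB2 (0.995), JRKL (0.995), AGAP1 (0.995) and MBD1 (0.994). These are correlations of log2(TPM + 1) over libraries that share the difference between the groups, given as a description.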
